A study of Mus musculus with 15 samples.

Results

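The repressor arm of the circadian clock was followed through 15 RNA-seq libraries of mouse prefrontal forebrain cortex. It comprised 10 genes, Per1, Per2, Per3, Cry1, Cry2, Ciart, Nr1d1, Nr1d2, Bhlhe40 and Bhlhe41, found by exact match of the gene name among 21878 rows of the deposited tables. All 10 passed a filter of at least 1 FPKM (fragments per kilobase of gene model, scaled to library depth) in at least 3 libraries, as did 12728 genes in all, and each was at or above 1 FPKM in 15 of 15 libraries. The mice were conditional double knockouts (DKO), in which Psen2 is a targeted gene, and wildtype C57BL6/J (WT). They were 8 months old at the start, the treated mice had nicotine at 100 µg/ml in their drinking water for 3 months and the others plain water, and tissue was taken once behaviour had been tested. There were 3 DKO nicotine, 4 DKO water, 4 WT nicotine and 4 WT water libraries. The promoter that drives the recombinase, the number of animals behind a library and the hour of dissection are not stated in the labels. The p-values therefore measure the spread between these libraries, which may in part be technical.

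The mammalian clock is a feedback loop in which CLOCK or NPAS2 pairs with BMAL1 (encoded by Arntl) and activates genes at E-boxes, among them its own repressors. PER and CRY proteins accumulate, enter the nucleus and shut this activation off, and CHRONO (Ciart) and the DEC proteins (Bhlhe40 and Bhlhe41) repress it as well. The nuclear receptors REV-ERB alpha and beta (Nr1d1 and Nr1d2) form a linked loop that represses Arntl and Npas2 at ROR elements, and DBP, TEF and HLF act at D-boxes. In cortex the loop runs in neurons and glia, and Per1, Per2 and Bhlhe40 also respond to neuronal activity and hormones.

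Promoter sequence shows how the members differ in these elements. RefSeq windows of build GRCm38.p6 were matched for 8 members, 9 windows in all because Per1 had 2, each running from 250 bases before to 50 bases after a transcript start. The stretches of 250 bases before the start are printed for 5 members on which the results turn, each in the 5′ to 3′ direction of its own gene, with motif matches in capitals. Ciart lies at chr3:95882229-95882478 on the minus strand, Per1 (its first window) at chr11:69098699-69098948 on the plus strand, and Per3 at chr4:151044666-151044915 on the minus strand. Nr1d2 lies at chr14:18239107-18239356 and Bhlhe41 at chr6:145865421-145865670, both on the minus strand.
Ciart: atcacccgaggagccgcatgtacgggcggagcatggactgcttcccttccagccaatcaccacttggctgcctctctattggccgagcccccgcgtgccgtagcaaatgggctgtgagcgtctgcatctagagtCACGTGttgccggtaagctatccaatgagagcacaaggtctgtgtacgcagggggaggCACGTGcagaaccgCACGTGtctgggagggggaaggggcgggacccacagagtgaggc
Per1: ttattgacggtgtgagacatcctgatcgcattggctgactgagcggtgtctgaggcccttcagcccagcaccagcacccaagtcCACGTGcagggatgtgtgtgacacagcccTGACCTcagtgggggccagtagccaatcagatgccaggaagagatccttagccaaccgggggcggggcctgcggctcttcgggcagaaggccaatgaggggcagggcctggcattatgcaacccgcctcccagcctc
Per3: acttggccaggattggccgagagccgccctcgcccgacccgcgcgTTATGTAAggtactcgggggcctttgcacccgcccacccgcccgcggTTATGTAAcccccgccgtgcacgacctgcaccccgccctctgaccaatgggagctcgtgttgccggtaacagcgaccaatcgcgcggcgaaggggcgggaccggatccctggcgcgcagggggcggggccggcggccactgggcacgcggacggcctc
Nr1d2: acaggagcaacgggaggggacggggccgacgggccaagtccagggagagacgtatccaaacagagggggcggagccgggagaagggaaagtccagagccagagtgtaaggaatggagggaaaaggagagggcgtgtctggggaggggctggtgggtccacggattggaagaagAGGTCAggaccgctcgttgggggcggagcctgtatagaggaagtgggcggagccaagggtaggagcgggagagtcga
Bhlhe41: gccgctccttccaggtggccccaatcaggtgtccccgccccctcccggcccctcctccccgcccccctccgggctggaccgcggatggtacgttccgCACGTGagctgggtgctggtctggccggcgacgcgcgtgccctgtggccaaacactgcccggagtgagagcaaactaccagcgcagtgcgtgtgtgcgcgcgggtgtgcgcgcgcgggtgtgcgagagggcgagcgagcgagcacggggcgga
The motifs searched on both strands were the E-box CACGTG, the E'-box CACGTT, the D-box TTATGTAA or TTACGTAA, the ROR element core AGGTCA and the cAMP response element TGACGTCA. None of these spellings overlapped another in the member windows. The Ciart window held 3 E-boxes, and those of Per1, Cry1 and Bhlhe41 held 1 each, so that 4 of 9 member windows had the motif, against 7.15% of all 32851 windows. The E'-box was found in the windows of Cry1, Cry2 and Nr1d1, 3 of 9, against 4.68% of all windows. Per3 alone among the 8 members with a window held D-boxes, 2 copies in 1 window, against 1.06% of all windows with at least 1. Per2 and Bhlhe40 had no window and were not searched. The ROR core was present in the first window of Per1 and in that of Nr1d2, 2 of 9 against 16.3% of all, and the cAMP response element in 0 of 9 against 1.79%.

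**Figure D1:**
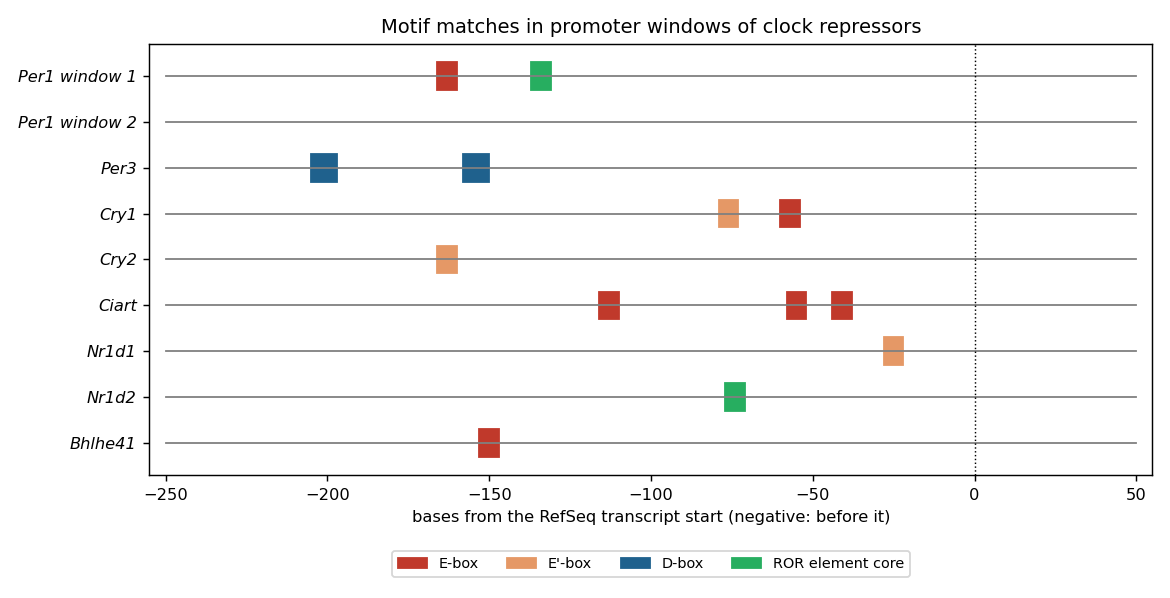
Positions of motif matches (coloured boxes) along the RefSeq promoter windows (grey lines) of 8 clock repressors, with distance in bases from the transcript start on the horizontal axis. The 3 E-boxes of Ciart and the 2 D-boxes of Per3 all lie before the start.

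The libraries held between 16334904 and 19469215 reads in genes, recovered as whole reads from the FPKM values, and members were covered by between 173 reads (Ciart) and 4080 reads (Bhlhe40). Psen2, a catalytic subunit of gamma-secretase, had 1.29 to 1.76 FPKM in the DKO libraries and 5.44 to 7.14 FPKM in the WT libraries, so the genotype labels held in every library. The summed level of 4 Y-linked genes was 35.9, 0.233 and 36.6 FPKM in DKO nicotine, 24.3 to 33.0 FPKM in DKO water, 0.0909 to 0.144 FPKM in WT nicotine and 28.9 to 33.0 FPKM in WT water. Nicotine and this difference cannot be told apart between the WT groups, and DKO nicotine replicate 2 stands apart from the other DKO libraries. Summed neuronal markers were 2167 to 2317 FPKM in DKO and 2478 to 2648 FPKM in WT libraries, and choroid plexus markers were at most 26.1 FPKM. Summed astrocyte markers reached 928 to 1033 FPKM in DKO and 491 to 575 FPKM in WT libraries, and microglial markers 326 to 398 FPKM in DKO and 98.9 to 114 FPKM in WT libraries. In water 6 of 6 astrocyte and 7 of 7 microglial markers were called higher in DKO, and under nicotine 6 of 6 and 5 of 7. Over all tested genes 25.5% were called higher and 12.4% lower in water, and 24.6% and 11.0% under nicotine. Among neuronal markers 4 of 7 were called lower in DKO in water and under nicotine, with 2 called higher in water (Gad1 and Gad2) and 1 under nicotine (Gad2). In water 3 of 5 oligodendrocyte and 3 of 6 endothelial and mural markers were also called higher in DKO, as was Vip, at a mean of 64.2 FPKM in DKO water and 29.6 FPKM in WT water. Summed striatal markers were 118 to 154 FPKM in DKO nicotine, 133 to 212 FPKM in DKO water, 85.0 to 147 FPKM in WT nicotine and 85.5 to 118 FPKM in WT water, and in water 2 of 4, Adora2a and Ppp1r1b, were called higher in DKO. No marker was at 0 in every library of a group. Their part in the differences between genotypes was not tested, and in bulk tissue fewer cells of a type and less RNA per cell cannot be told apart.

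Levels per length of gene model spanned about an order of magnitude among the members. In WT water Nr1d1 and Bhlhe40 were highest, with means of 67.4 and 61.5 FPKM and overlapping libraries, followed without overlap by Cry2 at 43.9, Nr1d2 at 29.6 and Per1 at 16.6 FPKM. Ciart at 9.26 and Bhlhe41 at 8.60 FPKM overlapped, and Per2 at 6.44, Cry1 at 5.70 and Per3 at 5.46 FPKM each overlapped the next. The order differed in DKO water, where Bhlhe40 at 34.8 FPKM overlapped Cry2 at 36.7 FPKM and Ciart was lowest at 3.88 FPKM. In WT nicotine the libraries of Per2 overlapped those of Bhlhe41, whose mean was 10.8 FPKM. Cry2, Nr1d1 and Nr1d2 varied little between libraries of a group, with coefficients of variation of 1.78% to 6.02%. Per2 and Ciart varied most within DKO nicotine, by 28.0% and 25.1%, although Ciart varied by only 5.23% in DKO water.

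**Figure D2:**
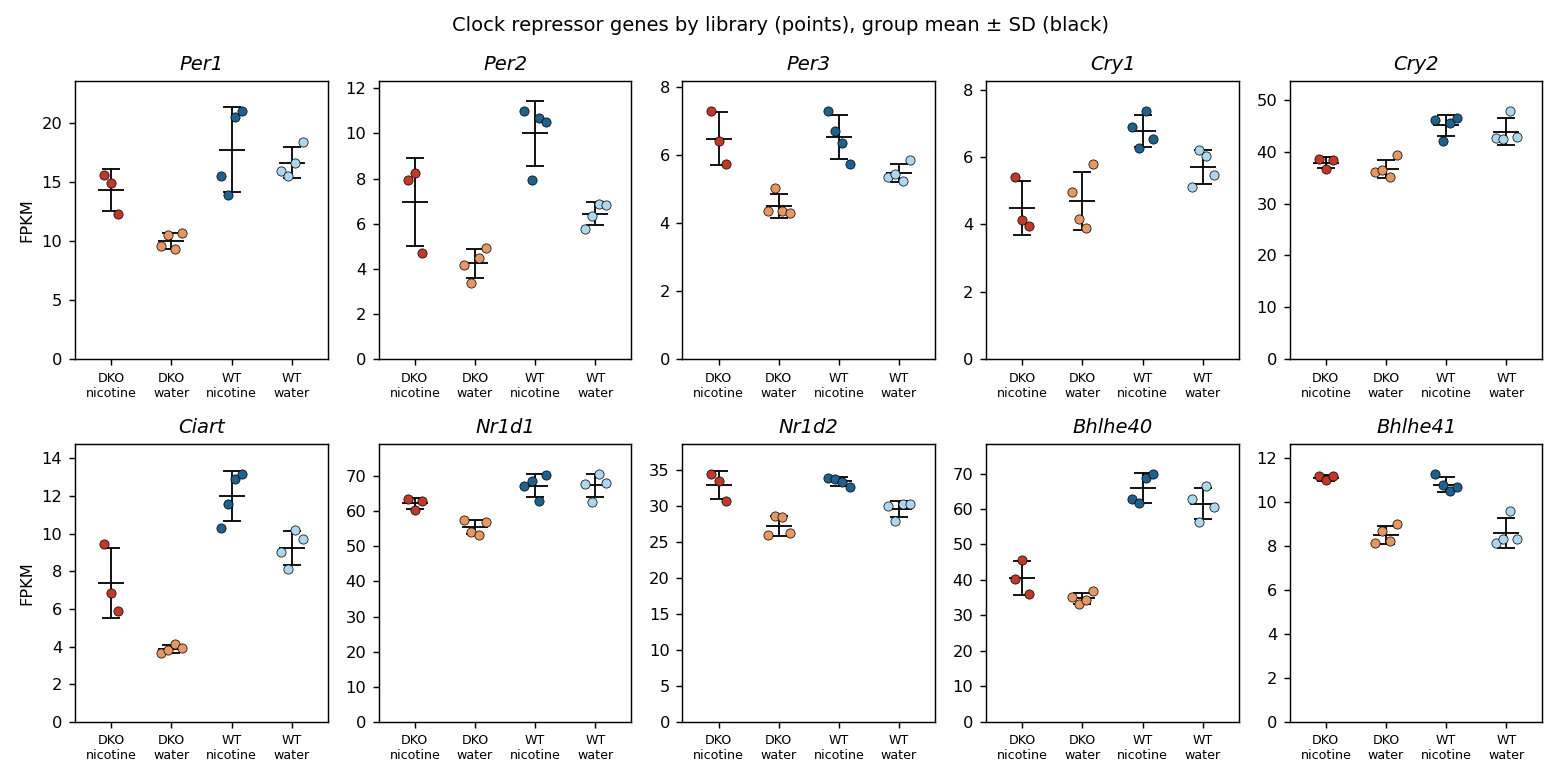
FPKM of the 10 clock repressors in every library (points) by group, with the group mean and SD in black (n = 3 for DKO nicotine and 4 for the other groups) and each axis starting at 0. The DKO water libraries of Ciart, 3.63 to 4.12 FPKM, lie below every other library of that gene, and Bhlhe41 separates nicotine from water in both genotypes.

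DKO water against WT water compares the genotypes without the drug, and here most of the repressor arm was lower in DKO. As the hour of dissection is not stated, its part in this and the other comparisons was not tested. All 10 estimates were negative and 8 members were called (limma adjusted p under 0.05 over all tested genes), namely Per1, Per2, Per3, Cry2, Ciart, Nr1d1, Nr1d2 and Bhlhe40. Of all tested genes 38.0% were called, 25.5% higher and 12.4% lower. The DKO libraries lay wholly below the WT libraries for 7 members, against 12.5% of all genes. The median log2 change of the members was -0.26, against 0.048 over all tested genes. Ciart and Bhlhe40 fell furthest, to 0.419 and 0.567 of their WT means, and Cry1 and Bhlhe41 were not called. All 10 members of DKO water replicate 1 and 8 in each of the other 3 DKO water libraries lay under the range of WT water, and 0 lay above it. For single libraries no share over all genes was computed. Of all calls in this comparison 67.2% were higher on the deposited scale and 48.0% once libraries were rescaled by median of ratios, under which all 8 members were still lower.

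In mice that drank nicotine the same comparison of genotypes called 5 members lower, Per2, Cry1, Cry2, Ciart and Bhlhe40, where 35.7% of all tested genes were called, 24.6% higher and 11.0% lower. The DKO nicotine libraries lay wholly below the WT nicotine libraries for 4 of them, against 11.8% of all genes, and the median log2 change was -0.26 against 0.061 over all genes. Per3, Nr1d2 and Bhlhe41 had nearly equal means in both genotypes under nicotine. Expression of Y-linked genes was seen in 2 of the 3 DKO nicotine libraries and in 0 of 4 WT nicotine libraries, and its part in these differences was not tested. Of all calls 69.0% were higher as deposited and 45.3% after rescaling, which called 7 members lower.

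Nicotine against water compares the treatments within a genotype. In DKO mice 4 members rose, Ciart, Per3, Nr1d2 and Bhlhe41, and 0 fell, where 0.157% of all tested genes were called, 0.102% higher and 0.055% lower. The DKO nicotine libraries lay wholly above the DKO water libraries for 6 members, those 4 with Per1 and Nr1d1, against 6.91% of all genes. Estimates were positive for 9 members, and their median was 0.31 against 0.008 over all genes. The number of calls was sensitive to single libraries: it was 0 without DKO nicotine replicate 2, DKO water replicate 1 or DKO water replicate 3, 1 without DKO nicotine replicate 1, and 2 without WT nicotine replicate 2 or 3, WT water replicate 1 or 4 or DKO water replicate 4. It was also 0 with only the 2 DKO groups in the fit, 2 without the filter on low values and 2 with a replicate block, while the 4 estimates stayed positive under all 24 alternatives. Of all calls 65.0% were higher as deposited and 53.3% after rescaling.

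In WT mice 1 member, Bhlhe41, rose with nicotine, where 0.173% of all tested genes were called, 0.0943% higher and 0.0786% lower. The WT nicotine libraries nonetheless lay wholly above the WT water libraries for 5 members, Per2, Cry1, Ciart, Nr1d2 and Bhlhe41, against 3.14% of all genes. Estimates were positive for 9 members, with a median of 0.19 against 0.001 over all genes. The count was 0 without WT nicotine replicate 1 or WT water replicate 4, and 2 without DKO nicotine replicate 3. In each WT nicotine library 6 to 8 members lay above the range of WT water, and 1 in replicate 1 and 2 in replicate 2 lay below it. Such counts per library were not made over all genes. The WT groups also differed in expression of Y-linked genes, which cannot be told apart from nicotine.

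**Figure D3:**
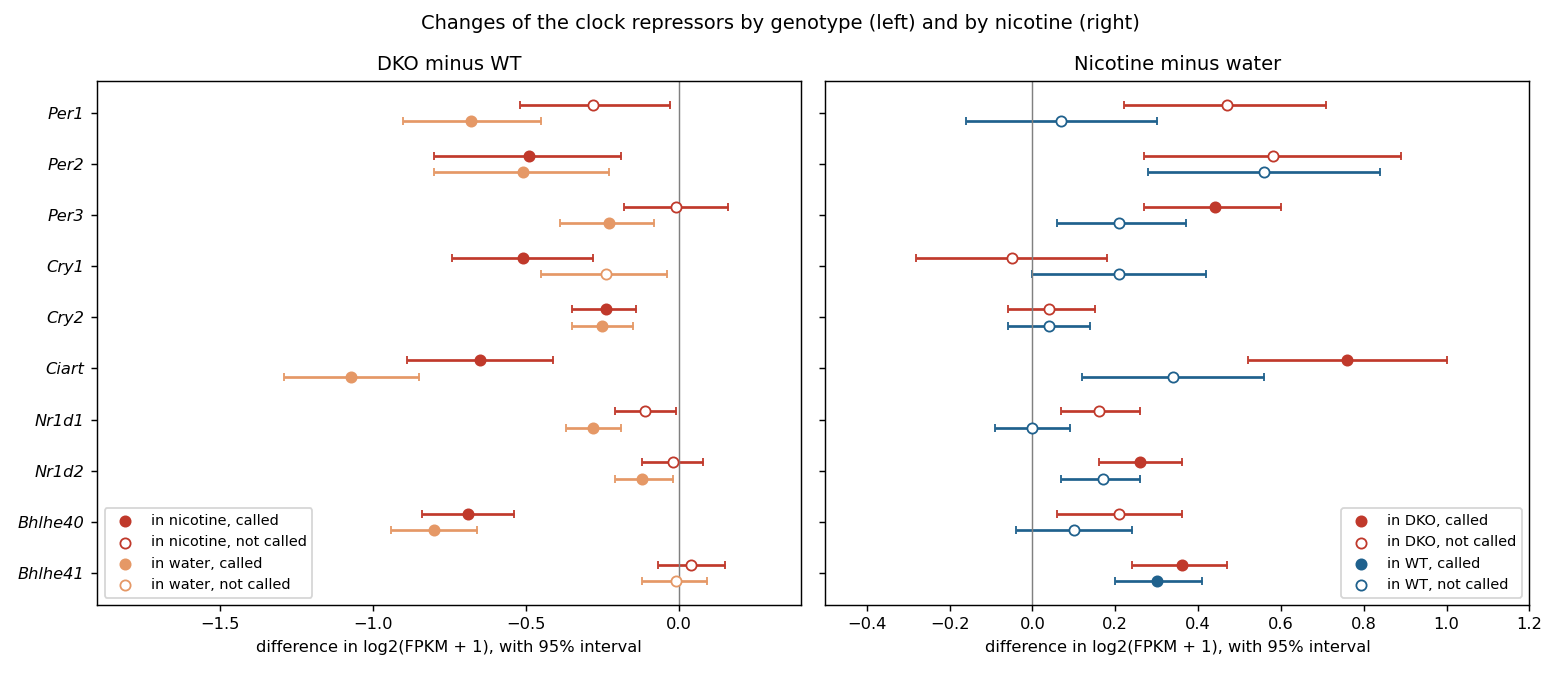
Differences in log2(FPKM + 1) of the 10 clock repressors with 95% intervals from the limma fit, DKO minus WT on the left and nicotine minus water on the right; filled symbols mark an adjusted p under 0.05. The intervals of Ciart and Bhlhe40 lie furthest below 0 on the left, and Bhlhe41 is near 0 on the left but above 0 in both genotypes on the right.

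Per1 encodes a PER protein whose transcript is quickly induced by light, hormones and neuronal activity. It had 15.6, 14.9 and 12.3 FPKM in DKO nicotine, 9.56, 10.5, 9.32 and 10.7 FPKM in DKO water, 15.5, 13.9, 20.5 and 21.0 FPKM in WT nicotine and 15.9, 15.5, 16.6 and 18.4 FPKM in WT water. All 4 DKO water libraries were below every other library, whereas DKO nicotine overlapped both WT groups. In water Per1 fell in DKO by 0.68 on the log2(FPKM + 1) scale (SE 0.11, limma adjusted p = 0.000106), to 0.603 of the WT mean. Under nicotine the difference between genotypes was -0.28 (95% interval -0.52 to -0.03, limma adjusted p = 0.072). Nicotine minus water was 0.47 in DKO (0.22 to 0.71, limma adjusted p = 0.113), where the libraries did not overlap, and 0.07 in WT (-0.16 to 0.30).

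Per2, whose protein scaffolds the PER and CRY complex and sets its nuclear entry, spread more. It had 7.92, 8.24 and 4.71 FPKM in DKO nicotine, 4.18, 3.38, 4.46 and 4.92 FPKM in DKO water, 11.0, 7.92, 10.7 and 10.5 FPKM in WT nicotine and 5.78, 6.32, 6.86 and 6.81 FPKM in WT water. DKO nicotine replicate 3 lay among the DKO water libraries, and the other 2 DKO nicotine libraries were above all of WT water. Per2 fell in DKO in water by 0.51 (SE 0.13, limma adjusted p = 0.00622) and under nicotine by 0.49 on the log2 scale (SE 0.14, limma adjusted p = 0.0139). The second of these was -0.27 and lost its call without DKO nicotine replicate 3. Nicotine minus water was 0.58 in DKO (0.27 to 0.89, limma adjusted p = 0.114) and 0.56 in WT (0.28 to 0.84, limma adjusted p = 0.151), and the WT groups did not overlap. Neither passed the threshold, though the call was gained in both genotypes without DKO nicotine replicate 3. In WT it was also gained with only the WT groups in the fit.

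Per3, a paralog that is dispensable for rhythm in mice, had 7.29, 6.40 and 5.72 FPKM in DKO nicotine, 4.34, 5.01, 4.35 and 4.29 FPKM in DKO water, 7.29, 6.71, 6.34 and 5.74 FPKM in WT nicotine and 5.35, 5.44, 5.22 and 5.84 FPKM in WT water. The nicotine groups covered the same range in both genotypes, and DKO water was lowest throughout. Per3 fell in DKO in water by 0.23 (SE 0.07, limma adjusted p = 0.0169; 0.0544 without WT water replicate 4), and under nicotine the difference was -0.01 (-0.18 to 0.16). With nicotine it rose by 0.44 in DKO (SE 0.08, limma adjusted p = 0.0349), while in WT the difference was 0.21 (0.06 to 0.37, limma adjusted p = 0.406). The DKO call was lost in 13 of 24 alternatives, no filter and the replicate block among them, with limma adjusted p up to 0.378 and estimates of 0.36 to 0.52.

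The cryptochromes bind CLOCK and BMAL1 and are the strongest repressors of the loop. Cry2 was called between genotypes in water and under nicotine, Cry1 under nicotine alone, and neither between nicotine and water. Cry1 had 5.40, 4.12 and 3.94 FPKM in DKO nicotine, 4.95, 4.15, 3.88 and 5.78 FPKM in DKO water, 6.90, 6.28, 7.37 and 6.52 FPKM in WT nicotine and 5.12, 6.21, 6.02 and 5.46 FPKM in WT water. The WT nicotine libraries were above all others, and the DKO groups overlapped each other. Cry1 fell in DKO under nicotine by 0.51 (SE 0.11, limma adjusted p = 0.00143), and in water the difference was -0.24 (-0.45 to -0.04, limma adjusted p = 0.0618). Nicotine minus water was -0.05 in DKO (-0.28 to 0.18) and 0.21 in WT (0.00 to 0.42, limma adjusted p = 0.556). Cry1 was covered by 232 to 427 reads per library, and Ciart by 173 to 668.

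Cry2 had 38.6, 36.7 and 38.4 FPKM in DKO nicotine, 36.1, 36.5, 35.1 and 39.3 FPKM in DKO water, 46.2, 42.1, 45.6 and 46.6 FPKM in WT nicotine and 42.6, 42.4, 47.9 and 42.8 FPKM in WT water. Every DKO library was below every WT library, and within a genotype the nicotine and water libraries were mixed. Cry2 fell in DKO by 0.25 in water (SE 0.05, limma adjusted p = 0.00045) and by 0.24 under nicotine (SE 0.05, limma adjusted p = 0.00118). Nicotine minus water was 0.04 in both genotypes, with intervals of -0.06 to 0.15 in DKO and -0.06 to 0.14 in WT.

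Ciart encodes CHRONO, a repressor that binds BMAL1 apart from the PER and CRY complex, and its printed promoter holds 3 E-boxes. It had 9.46, 6.85 and 5.87 FPKM in DKO nicotine, 3.63, 3.84, 4.12 and 3.92 FPKM in DKO water, 10.3, 11.6, 12.9 and 13.2 FPKM in WT nicotine and 9.05, 8.11, 10.2 and 9.70 FPKM in WT water. The groups stood in steps with DKO water lowest, then DKO nicotine, WT water and WT nicotine, and overlapped only between DKO nicotine and WT water through DKO nicotine replicate 1. Ciart fell in DKO by 1.07 in water (SE 0.10, limma adjusted p = 6.31e-07) and by 0.65 under nicotine (SE 0.11, limma adjusted p = 0.000309). With nicotine it rose in DKO by 0.76 (SE 0.11, limma adjusted p = 0.0149), to 1.91 times the DKO water mean. In WT the difference was 0.34 (0.12 to 0.56, limma adjusted p = 0.342), although all 4 WT nicotine libraries were above WT water. The rise in DKO lay between 0.59 and 0.90 under 24 alternatives. Its call was lost in 5 of them, without DKO nicotine replicate 2, DKO water replicate 1 or DKO water replicate 3 and in both fits of the 2 DKO groups alone, with limma adjusted p up to 0.251.

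The REV-ERB receptors are haem-binding repressors that recruit the NCOR1 and HDAC3 corepressor complex. Nr1d1 had 63.4, 60.4 and 63.0 FPKM in DKO nicotine, 57.5, 54.2, 53.2 and 57.0 FPKM in DKO water, 67.1, 68.8, 62.9 and 70.5 FPKM in WT nicotine and 67.9, 62.8, 70.8 and 68.2 FPKM in WT water. DKO water was below all other libraries, DKO nicotine lay above it and overlapped both WT groups at their lower end, and the WT groups were mixed. Nr1d1 fell in DKO in water by 0.28 (SE 0.04, limma adjusted p = 8.75e-05). Under nicotine the difference was -0.11 (-0.21 to -0.01, limma adjusted p = 0.0753). Nicotine minus water was 0.16 in DKO (0.07 to 0.26, limma adjusted p = 0.148) and 0.00 in WT (-0.09 to 0.09). Nr1d1 shares 263 exon bases with Thra on the opposite strand in GENCODE M21, and Thra had 219 to 259 FPKM, so reads of the 2 genes may be mixed if counting ignored strand. The same holds for Bhlhe41, Cry2 and Bhlhe40, which share 1280, 295 and 118 exon bases with opposite-strand transcripts (Gm43909, D930015M05Rik and 0610040F04Rik) whose levels were not measured here.

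Nr1d2 had 34.5, 33.4 and 30.7 FPKM in DKO nicotine, 25.9, 28.6, 28.4 and 26.2 FPKM in DKO water, 33.9, 33.8, 33.3 and 32.6 FPKM in WT nicotine and 30.0, 27.9, 30.3 and 30.3 FPKM in WT water. Every nicotine library, in both genotypes, was above every water library. With nicotine Nr1d2 rose in DKO by 0.26 (SE 0.05, limma adjusted p = 0.0362), and in WT the difference was 0.17 (0.07 to 0.26, limma adjusted p = 0.22). The DKO call was lost in 16 of 24 alternatives, rescaling, no filter, no intensity trend and the replicate block among them, with limma adjusted p up to 0.392, while the estimate stayed between 0.23 and 0.31. It fell in DKO in water by 0.12 (SE 0.04, limma adjusted p = 0.0449), with overlapping libraries, and this call was lost in 13 of 23 alternatives. Under nicotine the difference between genotypes was -0.02 (-0.12 to 0.08).

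The DEC proteins are helix-loop-helix repressors that compete at E-boxes, and are encoded by a pair of paralogs. Bhlhe40 (DEC1) had 40.2, 45.6 and 36.1 FPKM in DKO nicotine, 35.1, 33.1, 34.2 and 37.0 FPKM in DKO water, 62.9, 61.8, 68.8 and 70.0 FPKM in WT nicotine and 62.9, 56.2, 66.4 and 60.5 FPKM in WT water. Every DKO library was below every WT library, with no library between 45.6 and 56.2 FPKM. Bhlhe40 fell in DKO by 0.80 in water (SE 0.07, limma adjusted p = 7.28e-08) and by 0.69 under nicotine (SE 0.07, limma adjusted p = 1.29e-06). Nicotine minus water was 0.21 in DKO (0.06 to 0.36, limma adjusted p = 0.219) and 0.10 in WT (-0.04 to 0.24, limma adjusted p = 0.72).

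Bhlhe41 (DEC2) showed the reverse arrangement, with the nicotine and water groups and not the genotypes separating its libraries. Between the WT groups nicotine cannot be told apart from the difference in Y-linked expression. It had 11.2, 11.0 and 11.2 FPKM in DKO nicotine, 8.13, 8.67, 8.23 and 8.98 FPKM in DKO water, 11.3, 10.8, 10.5 and 10.7 FPKM in WT nicotine and 8.13, 8.33, 9.60 and 8.32 FPKM in WT water. All 7 nicotine libraries were at 10.5 FPKM or above and all 8 water libraries at 9.60 FPKM or below. With nicotine it rose by 0.36 in DKO (SE 0.05, limma adjusted p = 0.0149) and by 0.30 in WT (SE 0.05, limma adjusted p = 0.0102), to 1.31 and 1.26 times the water means. The difference between genotypes was 0.04 under nicotine (-0.07 to 0.15) and -0.01 in water (-0.12 to 0.09). The DKO rise was 0.34 to 0.39 under 24 alternatives, with limma adjusted p of 0.00427 to 0.251. Its call was lost in 6 of them, without DKO nicotine replicate 1 or 2, without DKO water replicate 1 or 3 and in both fits of the 2 DKO groups alone. The WT rise was 0.28 to 0.35 under 23 alternatives, with limma adjusted p of 0.00244 to 0.0601. It lost its call in 3 of them, with only the WT groups in the fit and without WT nicotine replicate 1 or WT water replicate 4.

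Whether nicotine acted differently in DKO and WT was asked with the interaction term. Limma called 0 of 10 members, as did limma voom on the recovered reads, where 0.0157% of all tested genes were called by limma, and 3 members had an unadjusted p under 0.05, against 6.9% of all genes. These were Ciart, with a difference of 0.42 between the nicotine effects in DKO and WT (0.10 to 0.75), Per1 with 0.40 (0.06 to 0.73) and Nr1d1 with 0.17 (0.03 to 0.30), with limma adjusted p of 0.657, 0.679 and 0.657. For Bhlhe41 the difference was 0.05 (-0.10 to 0.21) and for Per2 0.02 (-0.40 to 0.44). A larger response in 1 genotype was thus not shown for any member. The WT part of this term cannot be told apart from the difference in Y-linked expression between the WT groups.

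DKO mice on nicotine were also set against WT mice on water, the untreated controls. Limma called 7 members, Per3, Nr1d2 and Bhlhe41 higher and Cry1, Cry2, Ciart and Bhlhe40 lower, where 37.5% of all tested genes were called, 25.7% higher and 11.8% lower. Bhlhe40, Cry2 and Ciart stood at 0.66, 0.863 and 0.798 of the WT water mean, and Bhlhe40 and Cry2 lay wholly below WT water, as did 13.0% of all genes. Bhlhe41 was at 1.30 and Nr1d2 at 1.11 times the WT water mean, both wholly above it, as were 27.5% of all genes. Per1 at -0.21 (-0.45 to 0.04), Per2 at 0.07 (-0.24 to 0.37) and Nr1d1 at -0.11 (-0.21 to -0.01) were not called. Of 23 alternatives Per3 lost its call in 15, Ciart in 9, Cry1 in 7 and Nr1d2 in 5. The count was 3 without DKO nicotine replicate 2, 4 without WT water replicate 3, 4 without the filter on low values and 3 with a replicate block, and 45.8% of all calls were higher after rescaling against 68.6% as deposited.

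Within DKO nicotine the libraries ranked alike for many members. Replicate 1 was the highest of the 3 for 8 members and the lowest for 0, and replicate 3 was the lowest for 7 members and the highest for 0. Above the DKO water range lay 8 members in replicate 1, 8 in replicate 2 and 6 in replicate 3, and 0 lay below it. These counts, too, were made for the members only. No other group had a library that was highest for more than 6 members.

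The other genes of the loop that were measured, 10 of 11 activators and outputs, included 5 lower and 1 higher in DKO water against WT water, with a median of -0.11, where 25.5% of all genes were called higher and 12.4% lower. Hlf, a D-box activator, fell by 0.69 (SE 0.05, limma adjusted p = 2.79e-08), Rorb, an activating receptor of ROR elements, by 0.48 and Arntl2, a paralog of Arntl, by 0.29 on the log2 scale. Dbp fell by 0.23, Npas2 by 0.14, and Nfil3, a repressor at D-boxes, rose by 0.23 (limma adjusted p = 0.0311). Under nicotine 4 were lower in DKO than in WT, Hlf by 0.60, Npas2 by 0.20, Rorb by 0.17 and Tef by 0.12, and 0 were higher. Over all genes 11.0% were called lower and 24.6% higher there. Arntl and Clock were not called in either comparison of genotypes. In DKO nicotine against WT water Dbp was higher by 0.27, and Hlf fell by 0.57, Rorb by 0.33, Npas2 by 0.30 and Arntl by 0.22 on the log2 scale.

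By nicotine the activators and outputs divided. Dbp had 49.9, 40.8 and 41.5 FPKM in DKO nicotine, 31.6, 33.7, 28.3 and 29.8 FPKM in DKO water, 44.5, 49.6, 44.2 and 46.6 FPKM in WT nicotine and 34.9, 35.1, 39.6 and 36.0 FPKM in WT water. Every nicotine library was above every water library, as for Nr1d2 and Bhlhe41. Dbp rose in DKO by 0.50 (SE 0.07, limma adjusted p = 0.0149), and in WT the difference was 0.34 (limma adjusted p = 0.0502). Arntl, the target that the REV-ERB receptors repress, had 5.10, 5.13 and 5.59 FPKM in DKO nicotine, 6.96, 5.64, 6.03 and 6.57 FPKM in DKO water, 5.09, 5.29, 5.71 and 4.53 FPKM in WT nicotine and 6.29, 5.97, 6.24 and 6.66 FPKM in WT water. Nicotine libraries were below water libraries within each genotype, and the differences of -0.22 in DKO and -0.25 in WT were not called (limma adjusted p = 0.207 and 0.23). Npas2, another REV-ERB target, also lay wholly below water, at -0.16 in DKO and -0.10 in WT, and was not called. In DKO, Rorb and Arntl2 also lay wholly above water, with means of 3.99 against 3.52 FPKM and 2.38 against 1.89 FPKM. Nfil3 lay wholly below it there, at 1.51 against 2.03 FPKM. In WT, Tef lay wholly above water, at 80.5 against 73.0 FPKM. Rorb was lower with nicotine in WT, at 4.63 against 5.30 FPKM, with overlapping libraries. None of these was called by limma. Of all genes 6.91% in DKO and 3.14% in WT lay wholly above water, and 3.99% and 2.66% wholly below. Over the list limma called 1 gene in DKO and 0 in WT, limma voom called 1 in each, and 7 in DKO and 5 in WT had an unadjusted p under 0.05, against 13.9% and 8.7% of all genes. The medians were 0.04 in DKO and -0.02 in WT, against 0.008 and 0.001 over all tested genes.

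**Figure D4:**
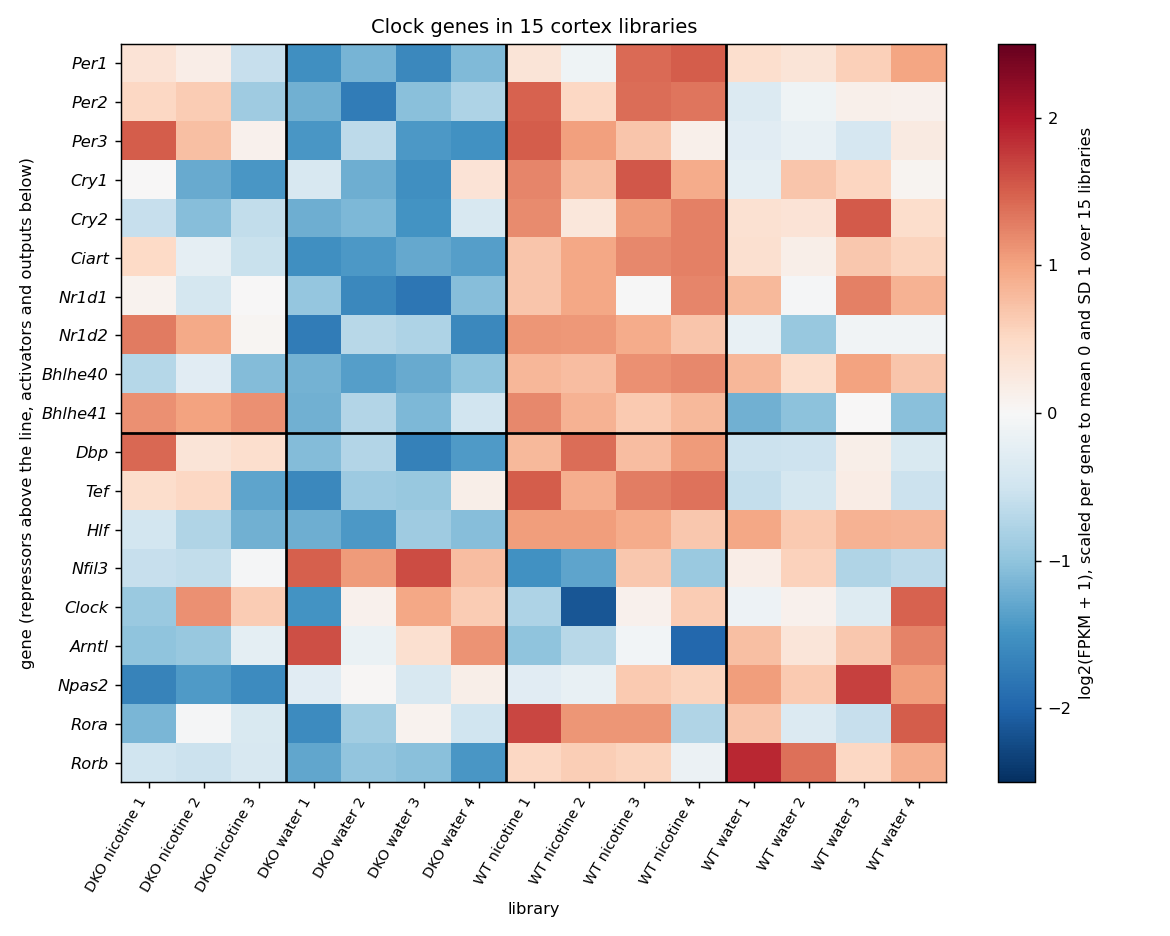
Log2(FPKM + 1) of the 10 clock repressors (above the line) and 9 activators and outputs (below it) in 15 libraries, each gene scaled to mean 0 and SD 1 over the libraries, red above and blue below its mean. Nr1d2, Bhlhe41 and Dbp are higher in the nicotine libraries of both genotypes, and Bhlhe40, Cry2 and Hlf are lower in the DKO libraries.

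Of 18 genes for turnover of clock proteins and for corepressors 16 were measured. In DKO water against WT water 5 were lower and 1 higher, 6 of 16, a share close to the 38.0% called among all genes. The smallest p-values belonged to Btrc and Fbxw11, the F-box proteins that target PER for degradation, Gsk3b, a clock kinase, and Ncor1, which fell by 0.18 to 0.20 on the log2 scale. Under nicotine 8 were lower and 3 higher in DKO, where 11.0% of all genes were called lower and 24.6% higher. Btrc fell by 0.24, Fbxw11 by 0.17 and Csnk1d, which phosphorylates PER, by 0.15, and Nono, a binding partner of PER, rose by 0.15. Nicotine against water gave 0 calls by limma and by limma voom in DKO and in WT. In each, 1 gene had an unadjusted p under 0.05, against 13.9% of all genes in DKO and 8.7% in WT.

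Per1 and Bhlhe40 share inputs with activity-regulated and glucocorticoid-responsive genes, which were therefore measured beside them. Of 15 activity-regulated genes 14 were lower and 1 higher in DKO water against WT water, where 12.4% of all genes were called lower and 25.5% higher. Their median log2 change was -0.82, against 0.048 over all tested genes. Egr1 had a mean of 48.8 FPKM in DKO water and 134.0 FPKM in WT water, Nr4a1 9.27 FPKM in DKO water and 32.7 FPKM in WT water, and Junb 24.1 FPKM in DKO water and 57.5 FPKM in WT water. Under nicotine 6 were lower and 1 higher in DKO, where 11.0% of all genes were called lower and 24.6% higher. Egr1 by 1.13 and Egr3 by 0.42 on the log2 scale were among the lower, and Bdnf was higher by 0.33. The summed level of the list was 170 to 249 FPKM in DKO nicotine, 155 to 221 in DKO water, 242 to 420 in WT nicotine and 423 to 522 in WT water. Nicotine against water called 0 in DKO by limma and by limma voom, with 0 at an unadjusted p under 0.05. In WT limma called 1, Npas4, which fell by 0.91 on the log2 scale, and 8 had an unadjusted p under 0.05. Over all genes 13.9% in DKO and 8.7% in WT had such a p, and limma called 0.157% and 0.173%. The estimates of the list had a median of 0.03 in DKO and -0.63 in WT, against 0.008 and 0.001 over all tested genes. The part of these inputs in the member values was not tested.

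Of 10 glucocorticoid-responsive genes 4 were higher in DKO water than in WT water, where 25.5% of all genes were called higher and 38.0% in either direction, with Mt2, Mt1 and Cdkn1a up by 0.80, 0.70 and 0.62 on the log2 scale. Under nicotine the same 3 were higher in DKO and Tsc22d3 lower by 0.28. Over all genes 24.6% were called higher and 11.0% lower there. Nicotine against water gave 0 calls by limma and by limma voom in DKO and in WT. At an unadjusted p under 0.05 there were 5 genes in DKO and 8 in WT, against 13.9% and 8.7% of all genes. All 10 estimates were positive in each genotype, and 4 genes in DKO and 6 in WT lay wholly above water, against 6.91% and 3.14% of all genes. Summed levels were 359 to 432 FPKM in DKO nicotine, 329 to 362 in DKO water, 258 to 293 in WT nicotine and 223 to 239 in WT water. Mt1 and Mt2 made up most of these sums, with means of 156 and 113 FPKM in DKO water and 95.4 and 64.3 FPKM in WT water. Between the genotypes in water 6 of the 10 genes were not called. The part of the glucocorticoid-responsive genes in the nicotine differences of the members was not tested. Of neuronal, astrocyte, microglial, oligodendrocyte, endothelial and striatal markers 0 were called between nicotine and water in either genotype by limma or limma voom. In DKO an unadjusted p under 0.05 was found for 3 of 7 microglial and 2 of 4 striatal markers. It was also found there for 1 of 5 oligodendrocyte and 1 of 6 endothelial and mural markers. In WT it was found for 1 of 7 microglial markers. The shares over all genes were 13.9% in DKO and 8.7% in WT. All 4 striatal estimates were negative in DKO, with a median of -0.47, and in WT the median was -0.06. Ttr, the 1 choroid plexus marker that passed the filter, was not called either, at -1.24 in WT and -1.13 in DKO. In WT nicotine it had 0.824 to 1.86 FPKM, wholly below the 2.82 to 8.01 FPKM of WT water, as were 2.66% of all genes. The DKO libraries of Ttr overlapped. The part of the striatal and choroid plexus markers in the nicotine differences of the members was not tested.

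The members also differed in which profiles over the 15 libraries lay nearest, by root mean square distance between values scaled to mean 0 and SD 1. Per3 and Nr1d2 were each other's nearest of all tested genes, at 0.36 SD, and Dbp stood second for Nr1d2 (0.43 SD) and at rank 3 for Per3 (0.44 SD). Arntl was among the farthest from both, at 1.77 SD from Per3 and 1.82 SD from Nr1d2. Bhlhe41 was nearest to Lrrc75b, Lin54 and Jsrp1 (0.44 to 0.48 SD), with Dbp at 0.51 SD. The 3 nearest profiles of each of the other members held no clock gene. Just past this cut, Ciart stood at rank 4 for Per1 (0.37 SD) and Tef at rank 5 for Per2 (0.42 SD). Bhlhe40 was nearest to Ephb3 (0.17 SD), Ciart to Map9 (0.28 SD), Cry2 to Cpne4 (0.30 SD), Per1 to Lrrtm2 (0.34 SD), Per2 to Nrarp (0.34 SD), Nr1d1 to Wdr77 (0.38 SD) and Cry1 to Camkv (0.40 SD). The libraries share group membership, so these distances are a description and carry no test.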

How the data were processed

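Gene expression was measured in 15 libraries by RNA-seq. TRIzol RNA and a TruSeq stranded mRNA kit were used, per the labels' protocols. The authors deposited FPKM values, 1 table per library. GRCm38.p6 was the build, per the submitters' processing notes, while aligner, counter and strand setting were not given in the sources used here. Overlapping genes on opposite strands may share reads. For 100% of tested genes the deposited FPKM values equalled whole reads within 0.02 reads, and these gave the depth per library. Ciart and Cry1 had the fewest reads of the members.

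Values were taken as log2(FPKM + 1), on which scale changes of low genes come out too small, for the 12728 genes that reached 1 FPKM in 3 or more libraries. Limma 3.58.1 (R 4.3.3) with an intensity trend was fitted to all libraries with a coefficient for each group, without a replicate block. P-values were adjusted by Benjamini-Hochberg over all tested genes in each of 6 comparisons. The code was tested on simulated data. Promoters came from RefSeq and gene overlaps from GENCODE M21. Python 3.11.15, pandas 2.3.3 and matplotlib 3.10.9 were used.

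The members and lists were chosen with earlier results of these data known. Besides the members, the rule named activators and outputs called in any comparison, up to 4 called turnover genes and up to 3 activity-regulated and glucocorticoid-responsive genes of smallest p per comparison, the 3 nearest profiles of each member, Psen2 and 4 Y-linked genes. Clock, Thra, Tsc22d3 and single cell type markers were added after their values were seen. Fbxl21 and Timeless did not pass the filter. Alternatives were median-of-ratios rescaling, no filter, a filter at 5 FPKM, a pseudocount of 0.1, no intensity trend, only the groups compared, a replicate block, limma voom on the recovered reads and leaving out each library. No columns of other samples were present.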

Additional observations from a re-analysis of the deposited data

Results flagged for a closer look

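In each group of 4 libraries the highest or lowest library of a member was set against the spread of its group, by its gap to the nearest other library as a share of the whole range. In 30 such groups 4 exceeded Dixon's 95% critical value for 4 libraries, and chance gives about 1 in 20 groups. Per3 was highest in DKO water replicate 2, at 5.01 FPKM against 4.29 to 4.35 FPKM in the other 3 (share 0.909). Cry2 was highest in WT water replicate 3, at 47.9 FPKM against 42.4 to 42.8 FPKM (share 0.916). Bhlhe41 was highest in the same WT water replicate 3, at 9.60 FPKM against 8.13 to 8.33 FPKM (share 0.867). Nr1d2 was lowest in WT water replicate 2, at 27.9 FPKM against 30.0 to 30.3 FPKM (share 0.84).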

How the results depend on the processing

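The number of called members was 6 to 9 in DKO water against WT water (8 as reported) and 4 to 7 in DKO nicotine against WT nicotine (5 as reported) under all alternatives run, and 0 for the interaction throughout, which uses all groups and so had no fit with only the groups compared. Nicotine against water in DKO, with 4 calls, gave 2 without the filter, 0 with only the groups compared, and 0 to 5 when 1 library was left out. It gave 0 in the DKO libraries that express Y-linked genes, fitted alone, an alternative chosen after seeing the data. In DKO nicotine against WT water, with 7 calls, it was 4 without the filter and 3 to 7 when 1 library was left out, and in WT, with 1 call, 0 to 2. The causes were not tested, except that fits with fewer libraries have less power by construction. With a replicate block the DKO count was 2 and that against WT water 3. Correlations of same-numbered deviations ran from -0.214 to 0.165, and those of differently numbered ones from -0.186 to 0.229. This check cannot exclude a pairing of libraries, since deviations within so small a group depend on one another. Limma voom called 87 genes in all for nicotine in DKO, against 20 by limma, with 4 members in both.

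Estimates that changed sign were all uncalled and near 0. After rescaling Bhlhe41 was -0.03 between DKO nicotine and WT nicotine, Per2 0.00 between DKO nicotine and WT water, and Cry2 -0.01 in the interaction. With 1 library left out, DKO nicotine minus WT nicotine ran from -0.09 to 0.06 for Per3 and -0.06 to 0.02 for Nr1d2. DKO water minus WT water ran from -0.04 to 0.04 for Bhlhe41, and DKO nicotine minus WT water from -0.06 to 0.29 for Per2. Nicotine minus water ran from -0.17 to 0.04 for Cry1 in DKO, and from -0.04 to 0.03 for Nr1d1 and -0.02 to 0.17 for Per1 in WT. The interaction ran from -0.04 to 0.04 for Cry2 and -0.10 to 0.24 for Per2.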
